A study of Mus musculus with 12 samples.

Results

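The hypoxia-inducible factor (HIF) and its target genes were examined in H9c2 cells through 10 genes, namely Hif1a, Vegfa, Egln1, Egln2, Egln3, Ankrd37, Adm, Pdk1, Ndrg1 and P4ha1. They were found by an exact match of the gene symbol and are 10 of the 54345 genes with expression values. The mRNA-seq data cover 12 libraries, with 3 in each of the groups Unt, DOX, D_DXZ and D_MgHCF, all harvested after 6 h. Cells of every group came from the line H9c2(2-1), labelled as myoblast with a WT genotype. The Unt cells received no drug, the DOX cells received doxorubicin, the D_DXZ cells doxorubicin with dexrazoxane (DXZ), and the D_MgHCF cells doxorubicin with magnesium hexacyanoferrate nanocatalysts (MgHCF NCs). No cells given DXZ or MgHCF without DOX were analysed here, and the doses in the sequenced cells are not given in the sources used here. Between 17724150 and 18509705 reads fell on genes in each Unt library, between 17882186 and 19365119 in each DOX library, between 17300819 and 18107499 for D_DXZ and between 16626514 and 17773368 for D_MgHCF. The labels do not say whether the 3 libraries of a group came from separate cultures, so p-values measure the spread between libraries, which may be technical.

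HIF is a transcription factor made of an oxygen-regulated alpha subunit, such as the Hif1a product, and a constant partner encoded by Arnt. In the presence of oxygen and ferrous iron, prolyl hydroxylases of the EGLN family modify the alpha subunit, which the VHL ubiquitin ligase then marks for degradation, and chelation of iron can slow this step. Stabilised HIF binds the short core sequence ACGTG or GCGTG near genes for angiogenesis, glucose metabolism and matrix modification, among them the genes of its own hydroxylases. Control of the alpha subunit is thus largely at the level of protein, which mRNA values do not measure. Doxorubicin is an anthracycline chemotherapy drug that binds DNA and iron, and dexrazoxane is a cardioprotective agent whose hydrolysis product chelates iron.

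The promoters of 4 of these genes are shown because their mRNA levels moved in different ways, with Egln3 high in D_MgHCF, Ankrd37 low in DOX, P4ha1 high in DOX and Hif1a encoding the factor itself. Each sequence is the 250 bases before the transcription start in RefSeq on GRCm38.p6, printed 5′ to 3′ on the strand of the gene, with the letters ACGTG on either strand in capitals.
Egln3, chr12:54203875-54204124, minus strand: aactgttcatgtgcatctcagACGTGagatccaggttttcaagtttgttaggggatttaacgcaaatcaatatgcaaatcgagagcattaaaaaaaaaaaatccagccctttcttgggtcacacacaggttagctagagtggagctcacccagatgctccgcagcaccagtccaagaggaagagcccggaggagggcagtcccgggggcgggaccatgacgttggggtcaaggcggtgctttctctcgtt
Ankrd37, chr8:45999851-46000100, minus strand: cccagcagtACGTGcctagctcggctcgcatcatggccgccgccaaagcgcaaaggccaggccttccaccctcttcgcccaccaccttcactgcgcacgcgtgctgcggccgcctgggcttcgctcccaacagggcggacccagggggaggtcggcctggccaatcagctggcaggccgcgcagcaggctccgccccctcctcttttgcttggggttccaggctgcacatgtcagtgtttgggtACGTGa
P4ha1, chr10:59323046-59323295, plus strand: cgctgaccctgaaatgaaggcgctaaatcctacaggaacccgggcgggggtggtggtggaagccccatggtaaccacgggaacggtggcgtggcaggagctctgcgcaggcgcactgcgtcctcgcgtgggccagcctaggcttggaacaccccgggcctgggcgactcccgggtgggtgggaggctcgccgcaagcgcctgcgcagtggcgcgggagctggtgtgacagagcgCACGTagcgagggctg
Hif1a, chr12:73907617-73907866, plus strand: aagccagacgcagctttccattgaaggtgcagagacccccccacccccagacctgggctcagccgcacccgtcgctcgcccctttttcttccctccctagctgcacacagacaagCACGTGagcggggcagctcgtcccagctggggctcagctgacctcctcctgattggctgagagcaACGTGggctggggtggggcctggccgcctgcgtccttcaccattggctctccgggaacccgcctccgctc
The motif lies 229 bases before the start of Egln3, 241 and 6 bases before the start of Ankrd37, and 16 bases before the start of P4ha1, where it is on the opposite strand. In Hif1a it lies 70 bases before the start and again at 134 to 135 bases, where the 6 letters CACGTG read the same on both strands and are also the E-box bound by other factors. The windows of Ankrd37 and Hif1a lie inside the annotated span of the gene, which also holds transcripts that start further upstream. Of the 10 genes, 9 matched the RefSeq table with 12 promoters, and Ndrg1 was not matched. ACGTG on either strand was present in 7 of these 12 promoters and in 16.6% of all 32851 promoters, and GCGTG on either strand in 8 of 12 and in 28.2%. At least one of these 2 motifs was in 10 of 12 and in 38.6% of all promoters. These are matches of letters in windows with GC contents from 38.4% to 86%, and no binding was measured. The sequences are from mouse, whereas H9c2 is known as a rat heart line, and the rat promoters were not examined.

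Before the genes are described, 3 properties of the libraries need to be stated. First, D_MgHCF replicate 3 stood apart from the other D_MgHCF libraries. Over the 10 genes the root mean square difference of log2(FPKM + 1), where FPKM is the number of fragments scaled by gene length and library size, was 0.26 between D_MgHCF replicates 1 and 2, but 1.14 and 1.02 between these and replicate 3, compared with 0.13 to 0.33 within the other groups. Over the 10 genes, replicate 3 lay 0.55 from the Unt mean, 1.15 from the DOX mean and 1.07 from the mean of the other D_MgHCF libraries. Tests of the 10 genes in D_MgHCF against Unt and DOX are therefore given with and without it.

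Second, the deposited FPKM are scaled by a median ratio. The library size that they imply was 1.32 to 1.38 times the reads on genes in Unt and 1.26 to 1.43 times in D_MgHCF, but 0.647 to 0.784 times in DOX and 0.747 to 0.892 times in D_DXZ. With FPKM computed over the summed reads, the median log2 change of the 11515 genes with a mean FPKM of at least 1 moved from 0.05 to -0.69 for DOX against Unt and from -0.09 to 0.67 for D_MgHCF against DOX. With FPKM rescaled to the same sum (TPM), these medians were -1.18 and 0.99. A 57-base gene, Gm23935, took 3.02% of the summed FPKM in Unt, 9.76% in DOX, 12.6% in D_DXZ and 4.46% in D_MgHCF, and its part in the TPM values was not tested. The direction of several genes below turns with the scaling.

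In addition, the cell type and organism labels were compared with the values. The myoblast genes Myod1, Myf5, Myog and Pax7 were at or near 0, with at most 0.126 FPKM in any library, Cdh15 reached 1.04 FPKM and Des ranged from 0.339 to 1.57 FPKM, so that the 6 myoblast markers summed to 0.339 to 2.46 FPKM. Of the fibroblast or mesenchymal genes, Vim ranged from 93.4 to 1136 FPKM, and the sum of the 6 markers of this list was 277 to 333 in Unt libraries, 975 to 1267 with DOX, 778 to 989 with D_DXZ and 132 to 206 with D_MgHCF. This sum, in which Vim was the most abundant gene and Thy1 was at or near 0, was highest in DOX and lowest in D_MgHCF, as were the values of Pdk1 and Hif1a, and its part in those results was not tested. Pdgfra and Pdgfrb of the same list went the other way, with means of 0.718 and 12.2 FPKM in Unt, 0.353 and 8.35 in DOX, and 0.538 and 10.9 in D_MgHCF. Of the cardiac genes, Gata4 ranged from 2.17 to 25.5 FPKM while Myh6, Myh7, Nkx2-5 and Nppa were near 0, and the 6 cardiac genes, in which Gata4 made up most of the sum, summed to 9.78 to 11.2 FPKM in Unt libraries, 3.14 to 5.84 with DOX, 3.04 to 4.14 with D_DXZ and 14.9 to 26.4 with D_MgHCF. Tnnt2, the other cardiac marker above 0 in every library, went the other way, with means of 0.133 FPKM in Unt, 0.903 in DOX, 0.495 in D_DXZ and 0.424 in D_MgHCF. The sums of 4 endothelial and of 3 blood genes were highest in D_MgHCF, at 0.263 to 1.08 and 0.454 to 1.13 FPKM, with the endothelial receptor Kdr and the leukocyte gene Ptprc at or near 0 in every library. The part of the cardiac, endothelial and blood genes in the results for D_MgHCF was not tested. H9c2 is known as a rat heart line, whereas the labels give mouse as the organism and the genes carry mouse identifiers, so levels of different genes may also depend on alignment. Gapdh, chosen after its values were seen, was listed at 2.18 ± 0.198 FPKM (SD, n = 3) in Unt, whereas Pgk1 was at 320.0 ± 7.11 FPKM.

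Differences between groups were tested with limma on log2(FPKM + 1) over 25044 genes, and a gene is called higher or lower at a Benjamini-Hochberg adjusted p under 0.05. Of the 10 genes, 3 were higher and 3 lower in DOX than in Unt, where 18.6% of all genes tested were called higher and 19.9% lower. D_DXZ against Unt gave 2 higher and 3 lower, where 15.9% and 18.0% of all genes were called. D_MgHCF against Unt gave 2 higher and 4 lower, where 24.3% and 15.7% of all genes were called. Without D_MgHCF replicate 3 there were 4 higher and 4 lower, where 33.1% and 19.4% were called. D_MgHCF against DOX gave 6 higher and 4 lower with all 12 libraries, where 31.4% and 20.1% of all genes were called. The counts were again 6 and 4 without D_MgHCF replicate 3, where 37.8% and 21.9% were called. D_MgHCF against D_DXZ gave 5 higher and 4 lower, where 29.4% and 19.0% of all genes were called. Leaving out D_MgHCF replicate 3 gave 6 higher and 4 lower, where 35.9% and 21.1% were called. D_DXZ against DOX gave 0 called among the 10 genes, where 0.00% of all genes were called higher and 0.00% lower. All 10 genes also passed a filter of FPKM of at least 1 in 3 libraries, which kept 12434 genes. With it, 9079 of these genes and 6 of the 10 were called for DOX against Unt, and 8402 and 6 for D_DXZ against Unt. For D_MgHCF the counts were 6778 and 7 against Unt, 9339 and 10 against DOX, and 8744 and 9 against D_DXZ. The shares called were thus higher over these genes than over all genes tested. The split into higher and lower turned with the scaling. Over all genes, 4649 were higher and 4973 lower in DOX than in Unt as deposited, 2075 and 8303 over summed reads, and 1111 and 10227 as TPM. With quantile normalization the counts were 4170 and 4340. For D_DXZ against Unt, 3979 higher and 4515 lower became 1913 and 7946 over summed reads, and 913 and 10083 as TPM. Quantile normalization gave 3517 and 3661 for this comparison. For D_MgHCF against DOX, 7863 higher and 5027 lower became 12376 and 2401 over summed reads, 13504 and 1691 as TPM, and 4626 and 4914 with quantile normalization. For D_MgHCF against D_DXZ, 7358 and 4757 became 11426 and 2382, 12801 and 1559, and 4587 and 4840 in the same order. For D_MgHCF against Unt, 6096 and 3941 became 7331 and 4138 over summed reads and 6652 and 4814 as TPM. With quantile normalization they were 4252 and 4627. Of the 10 genes, 0 were higher and 8 lower in DOX than in Unt as TPM, 1 and 6 over summed reads, and 1 and 4 with quantile normalization. For D_DXZ against Unt, 0 were higher and 7 lower as TPM, 1 and 6 over summed reads, and 1 and 3 with quantile normalization. For D_MgHCF against DOX, 7 were higher and 1 lower as TPM, 6 and 1 over summed reads, and 4 and 2 with quantile normalization. For D_MgHCF against D_DXZ these counts were 6 and 1, 5 and 1, and 5 and 2 in the same order. For D_MgHCF against Unt they were 3 and 3, 3 and 3, and 2 and 4.

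The comparisons share their Unt, DOX, D_DXZ or D_MgHCF libraries and are not independent of each other.

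**Figure D1:**
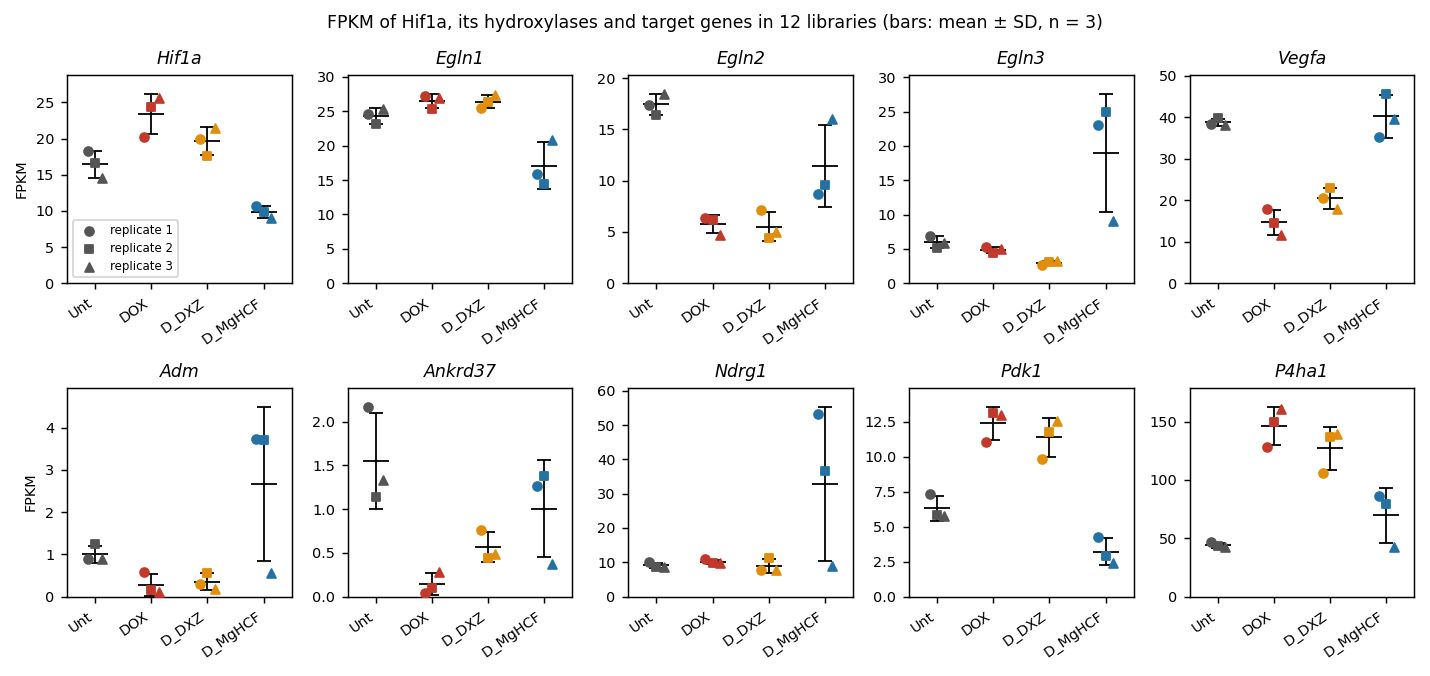
FPKM of the 10 genes in each of the 12 libraries, by group (circle, square and triangle for replicates 1, 2 and 3; bars, mean ± SD of 3 libraries; linear axes from 0). Vegfa and Egln2 sit lower in DOX and D_DXZ than in Unt in every library, Egln3 is at 9.14 to 24.9 in D_MgHCF against at most 6.91 elsewhere, and Ndrg1 and Adm are high in D_MgHCF replicates 1 and 2 but not in replicate 3.

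Hif1a (ENSMUSG00000021109, GRCm38 chromosome 12, 73901375 to 73947530, plus strand), which encodes the regulated subunit, was lowest in D_MgHCF. Its FPKM was 18.2, 16.6 and 14.5 in Unt, 20.3, 24.3 and 25.7 in DOX, 19.9, 17.6 and 21.5 in D_DXZ, and 10.7, 9.79 and 9.02 in D_MgHCF. All D_MgHCF libraries lay under all others, all DOX libraries lay above all Unt libraries, and D_DXZ overlapped both Unt and DOX. The decrease in D_MgHCF against Unt had a log2 fold change of -0.68 ± 0.12 (SE, limma adjusted p = 0.00155), from a mean of 16.5 ± 1.87 to 9.84 ± 0.833 FPKM (SD, n = 3), and stayed lower and called in all 21 alternatives (-0.63 without D_MgHCF replicate 3). Against DOX it was -1.17 ± 0.12 (limma adjusted p = 2.79e-05) and -1.11 without D_MgHCF replicate 3, but only -0.26 over summed reads and -0.03 as TPM, neither of them called. Hif1a was 1.42-fold higher in DOX than in Unt (log2 0.48 ± 0.12, limma adjusted p = 0.00783), a direction that reversed to -0.42 over summed reads and -0.84 as TPM, both called, and fell to 0.07 with quantile normalization. The change in DOX was also taken relative to the median of the 11515 genes with a mean FPKM of at least 1. So measured, it was 0.43 as deposited, 0.27 over summed reads, 0.33 as TPM and 0.04 with quantile normalization. A pair of short overlapping genes share exon bases with Hif1a, Gm15283 on the opposite strand (330 bases) and Gm49321 on the same strand (148 bases), with means of at most 0.183 FPKM.

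The genes whose profile over the 12 libraries was nearest to that of Hif1a were Ccny, Rnaseh2b, 1110051M20Rik, Atat1 and Elk3, with root mean square differences of centred log2 values from 0.103 to 0.119 among 11516 genes compared. Ccny, for example, was at 13.2 ± 0.673 FPKM in Unt, 17.3 ± 1.39 in DOX, 15.9 ± 1.36 in D_DXZ and 7.22 ± 1.49 in D_MgHCF (SD, n = 3). Of the partners and coactivators, Arnt, the constant subunit, was at 12.6, 12.1 and 13.2 FPKM in Unt, 4.90, 4.94 and 5.14 in DOX, and 1.79, 2.22 and 6.86 in D_MgHCF. Its DOX and D_MgHCF libraries all lay under those of Unt (log2 -1.18 ± 0.31 and -1.72 ± 0.31, limma adjusted p = 0.011 and 0.0019, the second -2.18 without D_MgHCF replicate 3), and D_MgHCF replicate 3 was the highest library of its group. Arnt in D_MgHCF against DOX was -0.54 and not called, was -1.0 and called without that replicate, and was 0.47 and not called as TPM. Epas1, the second alpha subunit, was low, at 0.385 ± 0.0324 FPKM in Unt and 0.784 ± 0.226 in DOX (SD, n = 3), a difference that was called as deposited (log2 0.36) but was -0.22 as TPM. The coactivator genes Crebbp and Ep300 were lower in DOX than in Unt (log2 -1.93 and -1.81) and higher in D_MgHCF than in DOX (0.88 and 1.14), and Crebbp was not called in the last comparison with quantile normalization. In all, of the 7 genes for HIF subunits and coactivators, 2 were higher and 3 lower in DOX than in Unt (median -0.01), against 0 and 5 both as TPM (median -0.92) and over summed reads (median -0.48). In D_MgHCF against DOX 2 were higher and 2 lower (median -0.19, and -0.58 with quantile normalization, but 0.47 as TPM and 0.19 over summed reads). Beside these and the lists that follow, the median over all genes tested was 0.00 for DOX against Unt (-0.30 as TPM) and 0.07 for D_MgHCF against DOX (0.56 as TPM). For the 11515 genes with a mean FPKM of at least 1, these were 0.05 and -0.09 (-1.18 and 0.99 as TPM). As deposited, 18.6% of all genes were called higher and 19.9% lower in the first and 31.4% and 20.1% in the second, while as TPM 1111 were higher and 10227 lower, and 13504 and 1691.

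The 3 prolyl hydroxylase genes that control HIF differed from each other. Egln1 (ENSMUSG00000031987, chromosome 8, 124908587 to 124949324, minus strand), the main oxygen sensor of most tissues, had FPKM of 24.6, 23.1 and 25.4 in Unt, 27.3, 25.4 and 27.0 in DOX, 25.4, 26.4 and 27.4 in D_DXZ, and 15.9, 14.4 and 20.9 in D_MgHCF. The D_MgHCF libraries were all under the others, and the Unt, DOX and D_DXZ means lay within 24.4 to 26.6 FPKM. Egln1 was lower in D_MgHCF than in Unt (log2 -0.50 ± 0.12, limma adjusted p = 0.00683, not called when only those groups were fitted), and without D_MgHCF replicate 3 the change was -0.65. Against DOX it was lower by the deposited values (-0.62 ± 0.12, limma adjusted p = 0.00118, and -0.77 without D_MgHCF replicate 3), was -0.12 and not called with quantile normalization, and turned to 0.30, not called, over summed reads and to 0.55, called higher, as TPM. DOX against Unt was not called (0.12 ± 0.12) but reversed to -0.79 over summed reads, -1.22 as TPM and -0.52 with quantile normalization, all called.

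Egln2 (ENSMUSG00000058709, chromosome 7, 27158658 to 27166802, minus strand), a paralogous hydroxylase, was at 17.4, 16.4 and 18.5 FPKM in Unt, 6.38, 6.15 and 4.72 in DOX, 7.15, 4.42 and 5.001 in D_DXZ, and 8.65, 9.60 and 16.0 in D_MgHCF. Every DOX and D_DXZ library lay under every Unt and D_MgHCF library. The mean fell from 17.4 ± 1.03 in Unt to 5.75 ± 0.896 in DOX (SD, n = 3), a log2 change of -1.46 ± 0.22 (limma adjusted p = 0.000324), and D_MgHCF was 1.98-fold above DOX (0.84 ± 0.22, limma adjusted p = 0.00847). Both changes kept their direction and were called in all 21 alternatives, the second at 0.59 without D_MgHCF replicate 3. D_MgHCF replicates 1 and 2 were nearer to DOX and replicate 3 nearer to Unt. D_MgHCF was still lower than Unt (-0.62 ± 0.22, limma adjusted p = 0.0453), a call that held in 7 of 21 alternatives and stood at -0.86 without D_MgHCF replicate 3. It was lost when any single Unt or DOX library, D_DXZ replicate 3, or D_MgHCF replicate 1 or 2 was left out (limma adjusted p from 0.05015 to 0.147).

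Egln3 (ENSMUSG00000035105, chromosome 12, 54178981 to 54203860, minus strand), the hydroxylase gene known to be most strongly induced by hypoxia, was upregulated in D_MgHCF. Its FPKM was 6.91, 5.16 and 5.80 in Unt, 5.27, 4.42 and 5.001 in DOX, 2.72, 3.07 and 3.21 in D_DXZ, and 23.0, 24.9 and 9.14 in D_MgHCF. All 3 D_MgHCF libraries lay above the other 9, with replicate 3 the lowest of them, and the D_DXZ libraries lay under all others. The mean in D_MgHCF, 19.0 ± 8.62 FPKM (SD, n = 3), was 3.19-fold that of Unt (log2 1.42 ± 0.29, limma adjusted p = 0.00395) and 3.88-fold that of DOX (1.65 ± 0.29, limma adjusted p = 0.000901). Both calls held in all 21 alternatives, with changes of 1.85 and 2.08 without D_MgHCF replicate 3. Replicates 1 and 2 averaged 4.02 times the Unt mean and replicate 3 was 1.53 times. DOX against Unt was -0.23 ± 0.29 and not called, but was called lower over summed reads (-1.02) and as TPM (-1.53). D_DXZ against Unt was -0.79 ± 0.29 (limma adjusted p = 0.0619), and was called in 7 of 21 alternatives, among them TPM (-2.0), summed reads (-1.41) and without D_MgHCF replicate 2 or 3 (limma adjusted p = 0.0422 and 0.000235).

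Of the 12 genes for oxygen sensing and HIF turnover, the EGLN genes included, 4 were higher and 5 lower in DOX than in Unt (median -0.10), against 2 and 8 as TPM (median -1.38) and 3 and 8 over summed reads (median -0.91). In D_MgHCF against DOX 7 were higher and 5 lower (median 0.51). The second median stayed above 0 under the other scalings, at 1.49 as TPM, 0.98 over summed reads and 0.25 with quantile normalization, where fewer genes, 6 higher and 3 lower, were called. Vhl, the substrate receptor of the ligase, was at 14.3, 13.9 and 15.7 FPKM in Unt, 6.07, 4.89 and 3.37 in DOX, and 9.59, 16.8 and 19.7 in D_MgHCF. It was lower in DOX than in Unt (log2 -1.46 ± 0.26, limma adjusted p = 0.00113) and higher in D_MgHCF than in DOX (1.47 ± 0.26, limma adjusted p = 0.00095, and 1.28 without D_MgHCF replicate 3). Hif1an, the asparaginyl hydroxylase that blocks coactivator binding, was at 9.51 ± 0.576 in Unt, 3.55 ± 0.575 in DOX and 6.17 ± 1.58 in D_MgHCF (SD, n = 3), and its rise in D_MgHCF over DOX (0.64) was not called with quantile normalization. The ubiquitin ligase genes Siah1a and Siah2, which act on the hydroxylases, were 11.5 and 11.2 FPKM in Unt, 1.01 and 1.91 in DOX, and 5.23 and 9.31 in D_MgHCF on average. Eloc and Rbx1, subunits of the VHL ligase, went the other way, at 17.8 and 21.0 in Unt, 78.4 and 59.3 in DOX, and 24.3 and 17.3 in D_MgHCF, though the rise of Rbx1 in DOX was 0.12 and not called as TPM.

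**Figure D2:**
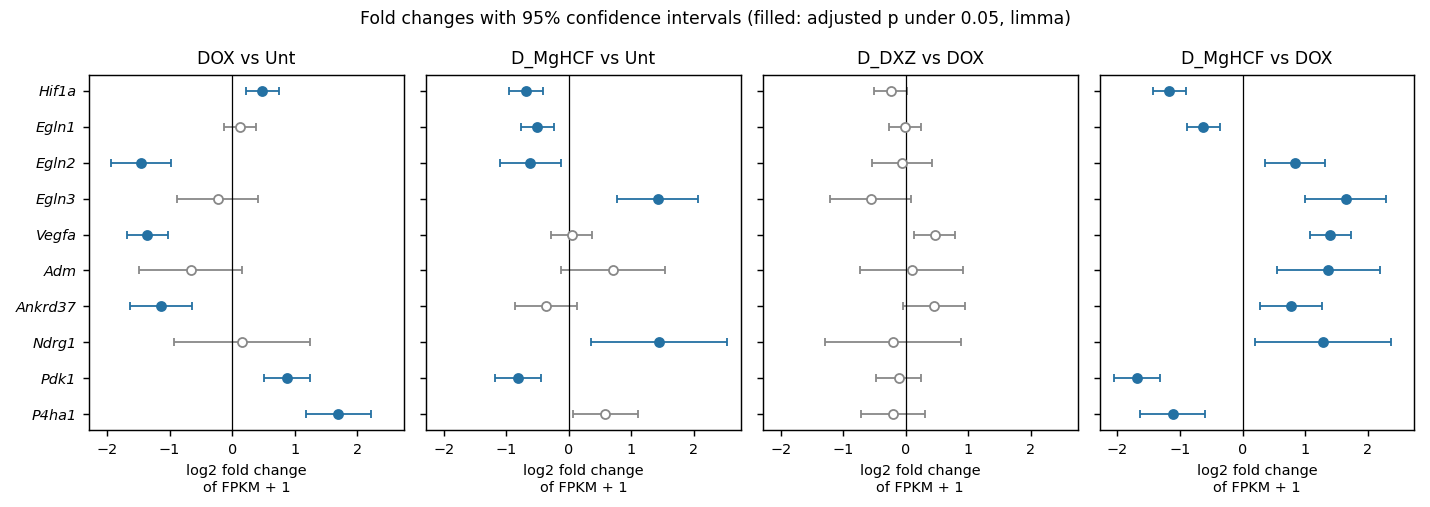
Log2 fold changes of log2(FPKM + 1) with 95% confidence intervals for the 10 genes in 4 comparisons (filled points, limma adjusted p under 0.05; open points, not called). For D_DXZ against DOX no point is filled, and for D_MgHCF against DOX all 10 are, with Egln2, Egln3, Vegfa, Adm, Ankrd37 and Ndrg1 to the right of 0.

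Among the secreted targets, Vegfa (ENSMUSG00000023951, chromosome 17, 46016993 to 46032369, minus strand), the angiogenic growth factor, was downregulated in DOX and D_DXZ but not in D_MgHCF. Its FPKM was 38.5, 39.8 and 38.1 in Unt, 17.8, 14.6 and 11.7 in DOX, 20.6, 23.0 and 17.9 in D_DXZ, and 35.3, 45.8 and 39.6 in D_MgHCF. The D_MgHCF libraries overlapped Unt and lay above every DOX and D_DXZ library, and every D_DXZ library lay above every DOX library, the nearest at 17.9 and 17.8. The mean fell from 38.8 ± 0.912 in Unt to 14.7 ± 3.06 in DOX (SD, n = 3), a log2 change of -1.36 ± 0.15 (limma adjusted p = 4.58e-05). D_MgHCF was 2.74-fold above DOX (1.40 ± 0.15, limma adjusted p = 3.33e-05), and both changes were called with the same sign in all 21 alternatives (1.41 against DOX without D_MgHCF replicate 3). D_MgHCF against Unt was 0.04, with a 95% interval from -0.29 to 0.37, and 0.05 without that replicate. Vegfa was also the 1 gene of the 10 with an unadjusted p under 0.05 for D_DXZ against DOX (0.47 ± 0.15, limma adjusted p = 0.385). Its 3 nearest profiles were those of Papd5, Frs2 and Cdkn2aip, with root mean square differences from 0.108 to 0.129 over 12 libraries.

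Adm (ENSMUSG00000030790, chromosome 7, 110627661 to 110629820, plus strand) encodes adrenomedullin, a vasodilator peptide, and was expressed at low levels. Its FPKM was 0.884, 1.24 and 0.885 in Unt, 0.570, 0.144 and 0.107 in DOX, 0.306, 0.566 and 0.185 in D_DXZ, and 3.73, 3.71 and 0.554 in D_MgHCF. These values rest on 35 to 48 reads in Unt, on 14, 3 and 2 reads in DOX, and on 127, 153 and 22 reads in D_MgHCF. D_MgHCF replicates 1 and 2 lay above all other libraries, whereas replicate 3 lay under Unt and within the range of DOX and D_DXZ. D_MgHCF against DOX had a log2 fold change of 1.37 ± 0.37 (limma adjusted p = 0.0108), 1.91 without D_MgHCF replicate 3, and 2.71 with a pseudocount of 0.1, since the pseudocount of 1 understates changes at such levels. This call held in 20 of 21 alternatives. D_MgHCF against Unt was 0.71 ± 0.37 and not called (limma adjusted p = 0.156), and without replicate 3 it was 1.24 and called (limma adjusted p = 0.000293). The DOX libraries were all under the Unt libraries, but the difference was not called (-0.67 ± 0.37, limma adjusted p = 0.213). It was called as TPM (-1.90), when only those groups were fitted and without D_MgHCF replicate 3 (limma adjusted p = 0.00623).

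Of 14 tested genes for secreted targets and their receptors, 3 were higher and 2 lower in DOX than in Unt (median -0.01), against 2 and 6 as TPM (median -0.28). In D_MgHCF against DOX 6 were higher and 2 lower (median 0.43, and 0.71 without D_MgHCF replicate 3, but 10 and 2 with a median of 1.27 as TPM). Pgf, a placental growth factor of the VEGF family, was at 6.85, 7.75 and 7.75 FPKM in Unt, 6.83, 4.78 and 4.82 in DOX, and 17.7, 27.6 and 25.0 in D_MgHCF, where all 3 libraries, replicate 3 included, were above all others (log2 1.91 ± 0.19 against DOX, limma adjusted p = 2.1e-05). Cxcl12, a chemokine, was at 10.97 ± 0.129 in Unt, 62.0 ± 12.5 in DOX and 10.2 ± 4.64 in D_MgHCF (SD, n = 3). In the VEGF family with its receptors, 5 of 10 genes were higher and 2 lower in DOX than in Unt (median 0.22, but 1 and 4 with a median of -0.15 as TPM). In D_MgHCF against DOX there were 3 higher and 4 lower (median -0.02, with both signs among the scalings). The paralogue Vegfb had means of 29.4 in Unt, 72.0 in DOX and 28.2 in D_MgHCF, while its change in DOX was -0.08 as TPM. In the list of adrenomedullin and its receptor subunits, 1 of 6 genes was lower in DOX than in Unt and 2 rose in D_MgHCF against DOX, with medians of 0.02 (-0.14 as TPM) and 0.18. The receptor gene Calcrl was at or near 0 in all groups.

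Ankrd37 (ENSMUSG00000050914, chromosome 8, 45996902 to 46005707, minus strand), an ankyrin repeat gene known as a HIF target, had FPKM of 2.17, 1.14 and 1.33 in Unt, 0.043, 0.101 and 0.281 in DOX, 0.765, 0.446 and 0.487 in D_DXZ, and 1.27, 1.38 and 0.371 in D_MgHCF. The values rest on 84, 42 and 50 reads in Unt but on 1, 2 and 5 reads in DOX. All DOX libraries lay under all others, and D_MgHCF overlapped both Unt and D_DXZ, with replicate 3 under every D_DXZ library. Ankrd37 was lower in DOX than in Unt (log2 -1.14 ± 0.22, limma adjusted p = 0.0019), called in all 21 alternatives. At these low values the pseudocount of 1 understates the change, which was -2.84 with a pseudocount of 0.1. D_MgHCF was higher than DOX (0.78 ± 0.22, limma adjusted p = 0.0147), which was lost with quantile normalization (0.48) and without D_MgHCF replicate 2 (0.63), was 1.03 without replicate 3 and was 2.15 with a pseudocount of 0.1. D_MgHCF against Unt was -0.36 and not called, and -0.11 without replicate 3. Exons of Ankrd37 overlap those of Lrp2bp (349 of 1539 bases) and Ufsp2 (57 bases) on the opposite strand. Ufsp2 had means of 7.58 FPKM in Unt, 15.5 in DOX and 5.71 in D_MgHCF, and since the sources used here do not state strand, reads of these genes cannot be told apart there.

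Ndrg1 (ENSMUSG00000005125, chromosome 15, 66929318 to 66969640, minus strand), a stress-response gene induced by hypoxia and by iron chelators, was uneven within D_MgHCF. Its FPKM was 9.99, 8.51 and 8.72 in Unt, 10.9, 9.76 and 9.91 in DOX, 7.68, 11.2 and 7.69 in D_DXZ, and 53.3, 36.6 and 8.80 in D_MgHCF. D_MgHCF replicates 1 and 2 were far above every other library, while replicate 3 lay within the range of Unt. Ndrg1 was higher in D_MgHCF than in Unt (log2 1.43 ± 0.49, limma adjusted p = 0.0396) and than in DOX (1.28 ± 0.49, limma adjusted p = 0.049). These calls held in 9 and 7 of the 21 alternatives. Without D_MgHCF replicate 3 the changes were 2.17 and 2.02 (limma adjusted p = 1.11e-05 and 1.18e-05), and without replicate 1 they were 0.93 and 0.78, neither called. Leaving out any other single library also ended the call against DOX (limma adjusted p from 0.0593), and any but D_DXZ replicate 2 ended that against Unt (from 0.0521). DOX and D_DXZ against Unt were 0.15 and -0.05 and were not called, nor were they as TPM, where both were below 0 (-1.15 and -1.20).

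Of the 4 NDRG genes, 2 were higher in DOX than in Unt, and D_MgHCF against DOX gave 2 higher and 1 lower (medians 0.58 and 0.64, the first -0.09 as TPM). Ndrg4 was at 3.70, 4.14 and 3.96 FPKM in Unt, 14.2, 11.9 and 11.6 in DOX, and 34.1, 42.0 and 38.1 in D_MgHCF, so that here replicate 3 was like replicates 1 and 2 (log2 2.98 ± 0.20 against Unt, limma adjusted p = 1.33e-05). Ndrg3, in contrast, was at 8.34, 8.86 and 8.69 in Unt, 15.1, 20.2 and 19.8 in DOX, and 2.33, 2.20 and 7.38 in D_MgHCF, lower than in DOX (-2.10 ± 0.31, limma adjusted p = 0.000265, and -2.56 without D_MgHCF replicate 3).

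Pdk1 (ENSMUSG00000006494, chromosome 2, 71873224 to 71903858, plus strand), a kinase that restrains pyruvate dehydrogenase and so the entry of pyruvate into mitochondria, was lowest in D_MgHCF. Its FPKM was 7.33, 5.85 and 5.76 in Unt, 11.03, 13.1 and 13.002 in DOX, 9.84, 11.8 and 12.5 in D_DXZ, and 4.27, 2.91 and 2.43 in D_MgHCF. No DOX or D_DXZ library overlapped Unt, and no D_MgHCF library overlapped any other group. D_MgHCF was lower than Unt (log2 -0.82 ± 0.16, limma adjusted p = 0.00342) and than DOX (-1.69 ± 0.16, limma adjusted p = 2.12e-05), with the same sign and a call in all 21 alternatives (-0.68 and -1.56 without D_MgHCF replicate 3). Pdk1 was 1.96-fold higher in DOX than in Unt (0.88 ± 0.16, limma adjusted p = 0.00144), but this was 0.02 and not called over summed reads and reversed to -0.37 as TPM. Relative to the median of the 11515 genes with a mean FPKM of at least 1, it was 0.83 as deposited, 0.71 over summed reads and 0.80 as TPM.

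Of the 10 genes for pyruvate dehydrogenase, its kinases and its phosphatases, 6 were higher and 3 lower in DOX than in Unt (median 0.55, but 1 and 7 with a median of -0.74 as TPM, and 3 and 5 with -0.31 over summed reads). D_MgHCF against DOX gave 4 higher and 4 lower (median 0.20, but 6 and 3 with a median of 1.36 as TPM). Pdk3, another kinase, was at 23.4 ± 1.66 FPKM in Unt, 88.4 ± 11.8 in DOX and 32.7 ± 2.30 in D_MgHCF (SD, n = 3). Pdha1, a subunit of the enzyme, was at 34.9 ± 0.448 in Unt, 60.1 ± 7.25 in DOX and 11.4 ± 1.90 in D_MgHCF, and its rise in DOX (log2 0.76) turned to -0.59 as TPM, -0.17 over summed reads and -0.25 with quantile normalization. Pdp1, the phosphatase that reverses the kinases, was at 3.25 ± 0.210 in Unt, 0.479 ± 0.231 in DOX and 6.67 ± 3.33 in D_MgHCF.

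In the wider list of 25 targets for glucose metabolism and pH, 15 were higher and 4 lower in DOX than in Unt (median 0.88), and 7 higher and 15 lower in D_MgHCF than in DOX (median -1.07). As TPM the counts were 8 higher and 9 lower, and 9 higher and 10 lower. The medians were 0.06 and 0.11 as TPM, 0.26 and -0.13 over summed reads, and 0.32 and -0.46 with quantile normalization. Ldha, lactate dehydrogenase, was at 317, 320.0 and 349 FPKM in Unt, 1272, 1632 and 1621 in DOX, and 241, 198 and 157 in D_MgHCF. Pgam1, a glycolytic mutase, was at 219.8 ± 11.1 in Unt, 1204 ± 182 in DOX and 201 ± 39.5 in D_MgHCF (SD, n = 3). Slc2a1, the glucose transporter, went the other way, at 24.4, 24.4 and 24.8 in Unt, 6.20, 4.74 and 4.73 in DOX, and 18.1, 21.0 and 15.1 in D_MgHCF, with a rise in D_MgHCF against DOX (log2 1.61 ± 0.17, limma adjusted p = 3.55e-05, and 1.73 without D_MgHCF replicate 3). Ldha and Pgam1 were higher and Slc2a1 lower in DOX than in Unt, and the reverse in D_MgHCF against DOX, under all 4 scalings.

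P4ha1 (ENSMUSG00000019916, chromosome 10, 59323296 to 59373304, plus strand), the catalytic subunit of collagen prolyl hydroxylase and like the EGLN enzymes dependent on iron, was the most abundant of the 10 per length. Its FPKM was 46.6, 43.1 and 42.8 in Unt, 128, 149.9 and 160.4 in DOX, 106, 136 and 139 in D_DXZ, and 86.6, 79.5 and 42.5 in D_MgHCF. All DOX and D_DXZ libraries lay above all others, and D_MgHCF replicate 3 was just under the Unt libraries while replicates 1 and 2 were in between. P4ha1 was 3.31-fold higher in DOX than in Unt (log2 1.70 ± 0.23, limma adjusted p = 0.000184), and this was 0.76 and called over summed reads, 0.35 and not called as TPM, and 0.39 and not called with quantile normalization. D_MgHCF was lower than DOX (-1.12 ± 0.23, limma adjusted p = 0.00243, and -0.80 without D_MgHCF replicate 3), which was not called over summed reads (-0.16) and changed sign without a call as TPM (0.09) and with quantile normalization (0.15). D_MgHCF against Unt was 0.58 ± 0.23 and not called, and 0.90 and called without D_MgHCF replicate 3 (limma adjusted p = 0.000411). It was called in 5 of 21 alternatives, among them TPM (0.44, limma adjusted p = 0.0484) and FPKM over summed reads (0.60, limma adjusted p = 0.0299).

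Of 7 collagen prolyl and lysyl hydroxylase subunits, 6 were higher in DOX than in Unt (median 1.61, but 3 higher and 1 lower with a median of 0.27 as TPM). In D_MgHCF against DOX 6 were lower (median -1.07, but 0.14 as TPM, -0.11 over summed reads and 0.04 with quantile normalization). P4hb, the disulfide isomerase that forms the beta subunit of the enzyme, was at 226 ± 14.6 FPKM in Unt, 1037 ± 134 in DOX and 379 ± 72.6 in D_MgHCF (SD, n = 3), but its fall from DOX to D_MgHCF (log2 -1.46) was 0.17 and not called with quantile normalization. P4ha3, a paralogue of P4ha1, was at 3.34 ± 0.231 in Unt, 18.6 ± 1.67 in DOX and 5.47 ± 1.81 in D_MgHCF. In the list of 8 targets for collagen modification and matrix, which shares P4ha1 and others with the list above, 6 were higher in DOX than in Unt (median 1.42, but 2 higher and 3 lower with a median of 0.09 as TPM). In D_MgHCF against DOX 7 were lower (median -1.16, but 0.04 as TPM). Lox, a collagen cross-linking oxidase, was at 54.9, 52.6 and 49.9 in Unt, 315, 401 and 443 in DOX, and 124, 83.0 and 43.4 in D_MgHCF.

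**Figure D3:**
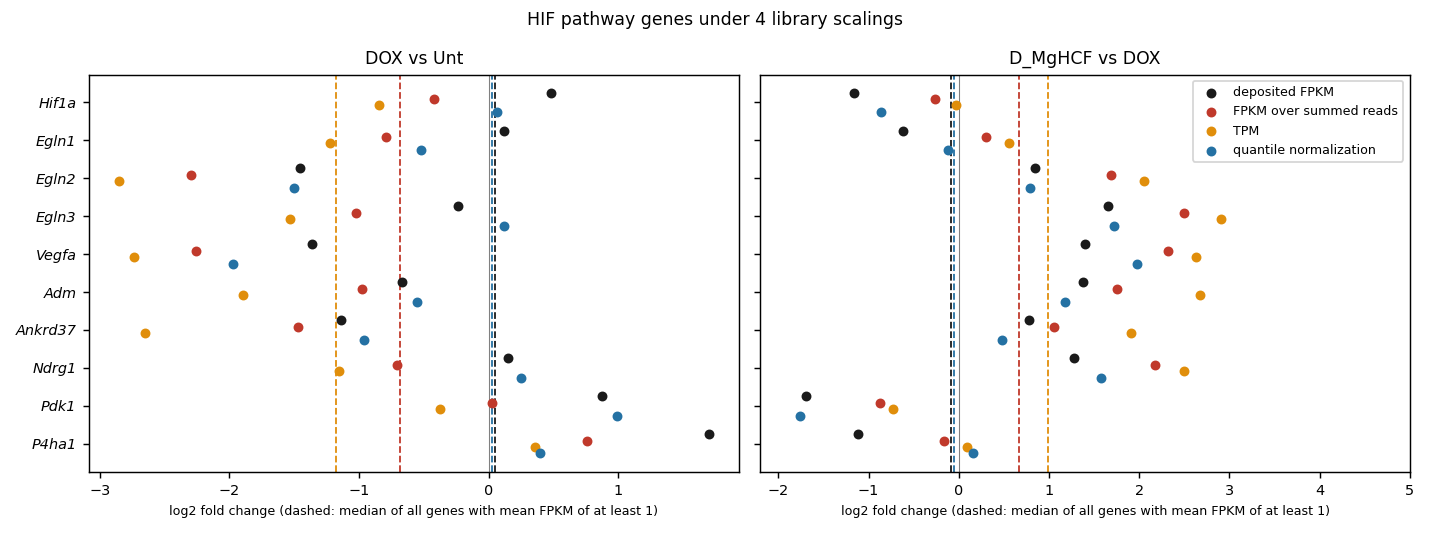
Log2 fold changes of the 10 genes under 4 library scalings for DOX against Unt and D_MgHCF against DOX, with the median of all genes with a mean FPKM of at least 1 under each scaling as a dashed line. Vegfa, Egln2 and Ankrd37 lie left of 0 in DOX against Unt under every scaling, and Vegfa, Egln2, Egln3, Adm, Ankrd37 and Ndrg1 lie right of 0 in D_MgHCF against DOX, whereas Hif1a, Egln1, Pdk1 and P4ha1 shift across or close to 0 in at least one of the panels.

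For D_DXZ against DOX, limma called 0 of 25044 genes, 2388 had an unadjusted p under 0.05, and limma-voom on the recovered reads also called 0. The log2 differences of the 10 genes, D_DXZ minus DOX, ranged from -0.56 for Egln3 to 0.47 for Vegfa on the log2(FPKM + 1) scale, while with a pseudocount of 0.1 that of Ankrd37 was 1.55 and not called. The 95% intervals of these differences were narrowest for Egln1 and Hif1a, from -0.27 to 0.25 for Egln1 and from -0.51 to 0.03 for Hif1a. They were widest for Ndrg1 and Adm, from -1.28 to 0.89 for Ndrg1 and from -0.73 to 0.92 for Adm. For Egln3 the D_DXZ libraries did not overlap those of DOX (interval -1.21 to 0.09), and neither did those of Vegfa (0.14 to 0.79) or Ankrd37 (-0.04 to 0.95), where D_DXZ was the higher. Against Unt, D_DXZ was lower for Vegfa (-0.89 ± 0.15), Egln2 (-1.52 ± 0.22) and Ankrd37 (-0.69 ± 0.22, limma adjusted p = 0.0366), and higher for Pdk1 (0.76 ± 0.16) and P4ha1 (1.50 ± 0.23). Hif1a was 0.24 and Egln1 0.11 against Unt, neither called, and both were called lower over summed reads (-0.48 and -0.62) and as TPM (-0.92 and -1.06). The Ankrd37 call against Unt held in 12 of 21 alternatives and was lost with a pseudocount of 0.1, with no filter, with quantile normalization (log2 -0.50), with voom, and without Unt replicate 1 or 3, DOX replicate 2, or D_DXZ replicate 2 or 3 (limma adjusted p from 0.0526 to 0.137). As TPM, Pdk1 turned to -0.33 and P4ha1 was 0.33, neither called. Pdk1 was also not called over summed reads (0.08), nor was P4ha1 with quantile normalization (0.45).

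D_MgHCF was also compared with D_DXZ, using the same D_MgHCF libraries. Egln3 was 6.34-fold higher by the ratio of means (log2 2.21 ± 0.29, limma adjusted p = 0.000166, and 2.64 without D_MgHCF replicate 3), and its libraries did not overlap. Vegfa was 1.96-fold higher (0.94 ± 0.15, limma adjusted p = 0.000498) and Hif1a was lower (-0.93 ± 0.12, limma adjusted p = 0.000139), the latter 0.04 and not called as TPM. Without D_MgHCF replicate 3 they were 0.95 and -0.87. Ankrd37 was the 1 gene of the 10 that was not called (0.32 ± 0.22), and its libraries overlapped, whereas it was 0.57 and called without D_MgHCF replicate 3. The calls of Adm and Ndrg1 (1.28 ± 0.37 and 1.48 ± 0.49) were lost without D_MgHCF replicate 1 (1.01 and 0.98) or 2 (1.01 and 1.25), that of Adm also without D_DXZ replicate 3 (1.19) and that of Ndrg1 without D_DXZ replicate 1 or 3 (1.40 each). Without D_MgHCF replicate 3 they were 1.81 and 2.22 (limma adjusted p = 2.31e-05 and 8.63e-06).

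**Figure D4:**
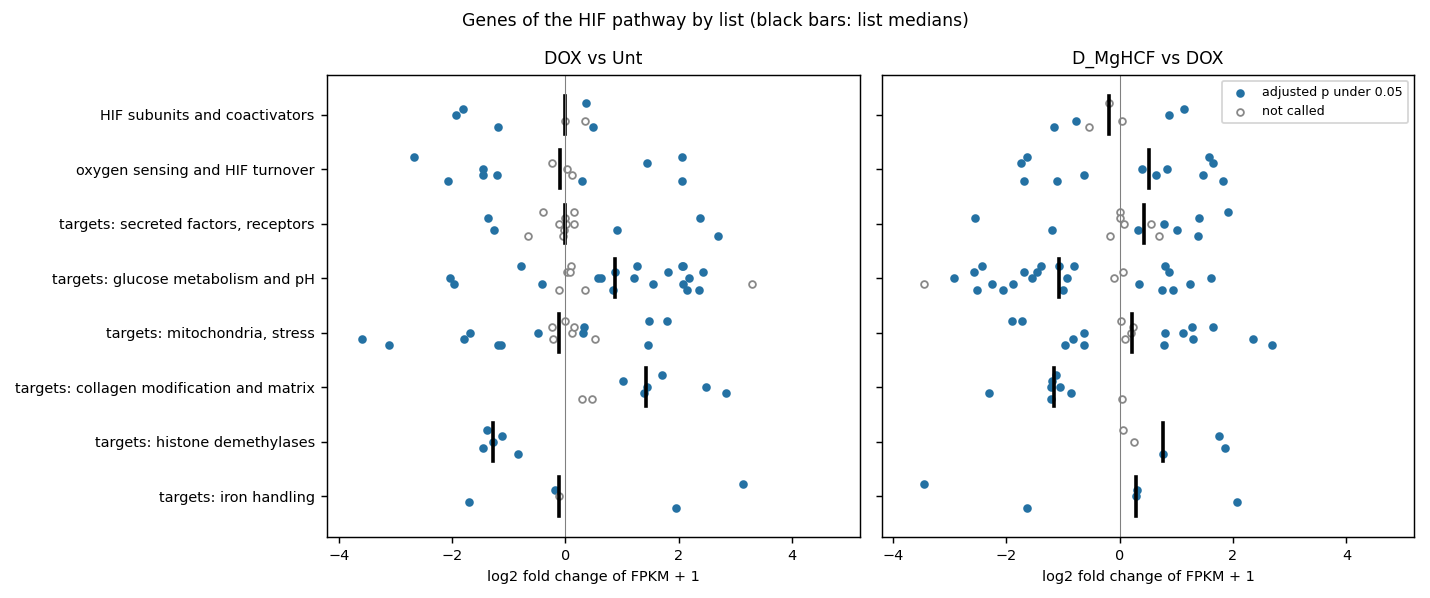
Log2 fold changes of genes in 8 lists of the HIF pathway for DOX against Unt and D_MgHCF against DOX, as deposited (filled points, limma adjusted p under 0.05; black bars, list medians). The collagen list lies right of 0 in DOX against Unt and mostly left of 0 in D_MgHCF against DOX, with medians of 1.42 and -1.16, and the histone demethylases the other way, with medians of -1.28 and 0.76.

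Further groups of HIF targets hold none or few of the 10 genes. All 5 histone demethylase genes, whose products like the EGLN enzymes use iron and oxygen, were lower in DOX than in Unt (median -1.28), and 3 of them rose in D_MgHCF against DOX (median 0.76), with medians on the same side of 0 under the other scalings. Without D_MgHCF replicate 3, the number of called genes in each of the 13 lists for D_MgHCF against DOX differed by at most 2 and each median kept its sign. Kdm4b, for example, was at 13.1, 13.3 and 13.7 FPKM in Unt, 4.52, 4.27 and 4.08 in DOX, and 24.5, 21.0 and 11.4 in D_MgHCF. Of 18 targets for mitochondria, stress and transcription, Ndrg1, Egln1, Egln3 and Ankrd37 among them, 5 were higher and 7 lower in DOX than in Unt (median -0.11), and 8 higher and 6 lower in D_MgHCF than in DOX (median 0.22). As TPM these were 1 and 13 (median -1.38) and 13 and 2 (median 1.41), and over summed reads 3 and 12 and 12 and 2. Cited2, a HIF target whose product competes with HIF for coactivators, was at 23.5, 25.7 and 25.6 in Unt, 2.57, 2.19 and 1.34 in DOX, and 33.7, 23.4 and 7.40 in D_MgHCF, again with replicate 3 the lowest of its group. Bnip3l and Fam162a of the same list went the other way. Bnip3l was at 28.8, 27.3 and 25.7 FPKM in Unt, 80.1, 105.7 and 106.4 in DOX, and 37.0, 27.4 and 22.8 in D_MgHCF. Its log2 change in DOX against Unt was 1.79 as deposited and 0.46 as TPM, both called. That of Fam162a was 1.48 and called, but 0.12 as TPM and -0.23 with quantile normalization, neither called. In D_MgHCF against DOX, Bnip3l was -1.73 and Fam162a -1.91, both called.

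Of 5 tested targets for iron handling, 2 were higher and 2 lower in DOX than in Unt (median -0.12), and 3 higher and 2 lower in D_MgHCF than in DOX (median 0.28). As TPM these were 1 and 3 (median -0.75) and 3 and 1 (median 1.0). Tfrc, the transferrin receptor, whose mRNA is also stabilised when iron is low, was at 21.6, 25.2 and 22.2 FPKM in Unt, 172, 216 and 249 in DOX, 169, 216 and 245 in D_DXZ, and 34.2, 40.5 and 3.87 in D_MgHCF. The DOX and D_DXZ libraries were far above the others, and D_MgHCF replicate 3 was the lowest of all 12. Hmox1, haem oxygenase, was at 33.2, 39.0 and 40.2 in Unt, 16.7, 10.6 and 6.81 in DOX, and 24.9, 47.6 and 94.8 in D_MgHCF, where replicate 3 was the highest of all 12. Both differed between D_MgHCF and DOX (log2 -3.45 ± 0.64 and 2.08 ± 0.44, limma adjusted p = 0.00122 and 0.00288). Without D_MgHCF replicate 3 they were -2.46 and 1.60, and Tfrc in D_MgHCF against Unt moved from -0.32, not called, to 0.68, called. These are RNA values of whole cultures, in which fewer cells with a transcript and less RNA per cell cannot be told apart.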

How the data were processed

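RNA-seq of 12 libraries (mRNA, paired reads of 150 bases) was deposited as FPKM per gene, which the authors computed from gene counts, and per the submitters' processing notes reads were aligned with HISAT2 2.0.5 to GRCm38/mm10. The counting program, annotation and strand setting are not given in the sources used here. The deposited gene length column (in bases) returned whole reads for 100% of values (tolerance 0.1 reads), and 0 sample columns were unused.

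The authors' methods describe a count test, but the deposited values are FPKM. Differences were therefore tested with limma 3.58.1 (R 4.3.3, mean trend) on log2(FPKM + 1) in 1 fit of 4 groups, over the 25044 genes that 3 or more libraries list above 0 FPKM, with Benjamini-Hochberg adjustment and a threshold of 0.05, and the fit was tested on simulated data. Replicate number was not used as a block, because only 2 of 18 pairs of same-numbered libraries had deviations correlated above 0.1. Alternatives were a pseudocount of 0.1, a minimum FPKM of 1, no filter, unadjusted p, an added 2-fold threshold, the replicate block, only the groups compared, TPM, FPKM over summed reads, quantile normalization, voom on recovered reads, and each library left out. The 21 alternatives counted for single genes leave out unadjusted p and the 2-fold threshold.

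All 10 genes were described. From each of 13 lists, the called gene with the largest rise and that with the largest fall in a comparison were eligible (where the group with the higher mean reached 1 FPKM), and Epas1, Arnt, Vhl and Hif1an were named whatever their values. The 10 genes, lists and markers were chosen with earlier results of these data known. Profile likeness is the root mean square difference of centred log2(FPKM + 1). Promoters are from RefSeq (GRCm38.p6), exon overlaps were read from the annotation, and near-identical copies were sought with BLAST 2.17.0 (at least 95% identity over 150 bases), which found only overlapping partners. Python 3.11.15, pandas 2.3.3 and matplotlib 3.10.9 were used.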

Additional observations from a re-analysis of the deposited data

How the results depend on the processing

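Of the single-gene results, leaving out 1 library kept the call, with its direction, or the lack of one in 670, lost the call in 43 and gained one in 7. The other alternatives kept 469, lost 34, gained 16 and reversed 21, where a change of sign with no call on either side counts as kept (as TPM, Ndrg1 in DOX against Unt went from 0.15 to -1.15). As TPM the reversed log2 changes were, for DOX against Unt, -0.84 (Hif1a), -1.22 (Egln1) and -0.37 (Pdk1), for D_DXZ against Unt -0.92, -1.06 and -0.33 (Hif1a, Egln1, Pdk1), for D_MgHCF against DOX 0.55 (Egln1) and 0.09 (P4ha1), and for D_MgHCF against D_DXZ 0.04 (Hif1a), 0.39 (Egln1) and 0.12 (P4ha1). Over summed reads they were -0.42 (Hif1a) and -0.79 (Egln1) for DOX against Unt, -0.48 and -0.62 (Hif1a, Egln1) for D_DXZ against Unt, and 0.30 and 0.13 (Egln1) for D_MgHCF against DOX and D_DXZ. With quantile normalization they were -0.52 and -0.40 (Egln1) for DOX and D_DXZ against Unt, and 0.15 and 0.10 (P4ha1) for D_MgHCF against DOX and D_DXZ. TPM and FPKM over summed reads differ from the deposited scaling in the library totals they equalise. Each multiplies all FPKM of a library by 1 factor, so that all its genes shift together. Quantile normalization instead gives all libraries the same distribution of values. Why the totals differ between groups, and the cause of the reversals with quantile normalization, were not tested.

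Genes called for D_DXZ against DOX were 0 as reported, 6 with a pseudocount of 0.1, 2 with the FPKM filter, 1 with no filter, 3 with quantile normalization and 2388 (1 of the 10 genes) at an unadjusted p under 0.05. With the 2-fold threshold added, 5006 genes were called for DOX against Unt and 3746 for D_DXZ against Unt. For D_MgHCF there were 2816 against Unt, 5711 against DOX and 4864 against D_DXZ. Of the 10 genes, 4 were called for DOX against Unt and 2 for D_DXZ against Unt. For D_MgHCF, 2 of them were called against Unt, 7 against DOX and 4 against D_DXZ. Fitting only the groups compared gave 6218 genes and 3 of the 10 for D_MgHCF against Unt. That fit gave 9178 genes and 8 of the 10 for D_MgHCF against DOX, and 8114 and 6 against D_DXZ. It gave 11180 genes for DOX against Unt and 10518 for D_DXZ against Unt, with 7 of the 10 in each. Quantile normalization gave 6 of the 10 for D_MgHCF against DOX. With 1 library left out, 8458 to 10978 genes and 6 to 7 of the 10 were called for DOX against Unt, 7098 to 10065 and 4 to 7 for D_DXZ against Unt, 0 to 4 and 0 to 0 for D_DXZ against DOX, 7256 to 12703 and 4 to 8 for D_MgHCF against Unt, 10667 to 14455 and 8 to 10 against DOX, and 10081 to 13787 and 7 to 10 against D_DXZ.

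Correlations of deviations between same-numbered libraries ran from -0.31 to 0.31. Those above 0.1 were both for DOX with D_DXZ, at 0.31 for replicate 1 and 0.22 for replicate 3. Such correlations were not computed between libraries of different numbers. For D_DXZ against DOX, 0 genes were called with the replicate block. With the replicate block, Egln2 in D_MgHCF against Unt lost its call (log2 -0.62, limma adjusted p = 0.0673), and no other of the 10 genes lost a call. Depth limits Ankrd37 and Adm most, with 1 to 5 and 2 to 14 reads in DOX. Reads without molecular identifiers are not independent molecules, and 3 libraries a group limit every interval.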

Other observations

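Values of 4 further genes of the lists are given here. Ddit4, an inhibitor of mTOR signalling, was at 80.1, 75.2 and 86.1 FPKM in Unt, 11.9, 4.97 and 3.005 in DOX, 20.8, 12 and 5.12 in D_DXZ, and 22.5, 24.8 and 66.4 in D_MgHCF. Every treated library lay under every Unt library, and D_MgHCF replicate 3 was the one nearest to Unt. Ak4, a mitochondrial adenylate kinase, was at 6.46, 6.26 and 6.17 FPKM in Unt, 8.78, 8.002 and 8.02 in DOX, and 18.2, 18.6 and 8.96 in D_MgHCF, so that replicates 1 and 2 were again high and replicate 3 close to DOX, and its change in DOX against Unt was 0.34, not called, as deposited and -0.93, called lower by limma, as TPM. Vldlr, a lipoprotein receptor, was at 14.5, 13.9 and 13.3 FPKM in Unt, 5.88, 5.35 and 5.34 in DOX, and 3.995, 2.61 and 3.19 in D_MgHCF, where no library overlapped Unt or DOX, although the change from DOX (log2 -0.62, called) was 0.40 as TPM and 0.15 over summed reads, neither called. Pdhb, a subunit of pyruvate dehydrogenase, was at 27.1, 28.0 and 28.7 FPKM in Unt, 86.7, 92.1 and 92.4 in DOX, and 88.7, 102 and 56.9 in D_MgHCF, whereas its partner subunit Pdha1 was lower in D_MgHCF than in Unt. For Pdhb, D_MgHCF against DOX was -0.17 and not called as deposited, and was called higher as TPM (1.04), over summed reads (0.79) and with quantile normalization (1.02).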
